A study of Mus musculus with 4 samples.

Results

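8 genes that carry the canonical Wnt signal from the cell surface to DNA were examined for 5-hydroxymethylcytosine (5hmC) in mouse embryonic stem cells (ESC) and in neural progenitor cells (NPC) made from them. The genes were chosen by name: the co-receptor Lrp6, the cytoplasmic components Axin1, Axin2, Apc and Gsk3b, and the DNA-binding factors Tcf7l1, Tcf7l2 and Lef1. Each was measured over its span on genome build mm9, with 5 kb added on both sides, and these windows held 205 of the 527794 tiles of 5 kb into which chromosomes 1 to 19 and X were divided. The spans were chr6:134396000-134517000 for Lrp6 and chr6:72576000-72740000 for Tcf7l1, both read from the minus strand. On the plus strand lay Axin1 (chr17:26275000-26333000), Axin2 (chr11:108781000-108813000), Apc (chr18:34380000-34482000), Gsk3b (chr16:38089000-38247000), Tcf7l2 (chr19:55816000-56009000) and Lef1 (chr3:130813000-130928000). 4 libraries were available, 1 per group: 5hmC-precipitated and input DNA of ESC, and 5hmC-precipitated and input DNA of NPC.

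The ESC were of the 46C line, strain 129/Ola, grown in 10% serum and 1000 U/ml leukemia inhibitory factor. The NPC were derived from the same line by monolayer differentiation in N2B27 medium and were taken at day 9 as rosette-like cells positive for a Sox1-GFP reporter. Neither group received siRNA or shRNA, and all libraries come from this single line. DNA of both cell types carried different barcodes and shared 1 tube during precipitation with a 5hmC antibody. Identity of the cells could not be checked on marker genes, since DNA and not RNA was sequenced. In such a mixture of cells, fewer cells with 5hmC at a gene and less 5hmC per cell cannot be told apart.

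5hmC is made from 5-methylcytosine by the TET enzymes. It is found on gene bodies and enhancers in ESC and is usually scarce at CpG-rich start sites. In canonical Wnt signalling, a Wnt ligand bound to Frizzled and LRP6 inactivates a complex of AXIN, APC and the kinase GSK3B, which otherwise marks beta-catenin for degradation. Stabilised beta-catenin enters the nucleus and acts through factors of the TCF/LEF family. In ESC this pathway favours self-renewal, largely by relieving repression by TCF7L1.

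The measure was the number of distinct 5hmC reads per distinct input read, where at most 1 read per position and strand was counted and each read was placed by the midpoint of its 350 bp extension. Genome-wide this level was 1.41 in ESC and 0.265 in NPC, an NPC/ESC ratio of 0.188, or a 5.32-fold lower level in NPC. A level below is given relative to the genome-wide level of its own cell type, which sets this global difference aside, whereas the NPC/ESC ratio includes it. The libraries held 7123491 and 1742680 distinct 5hmC reads in ESC and NPC, and 5059243 and 6588254 distinct input reads. With 1 library per group there is no replicate error and no p-value was computed. Intervals are 95% intervals that cover counting error only, and they are not adjusted for the number of genes.

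The 8 genes as a group were rich in 5hmC in ESC and less so in NPC. In ESC, 7 of 8 lay above the genome-wide level beyond counting error, with a median of 1.86 times, and the exception was Axin1. In NPC, 4 of 8 lay above it, 1 below, and the median was 1.22 times. Among all runs of as many adjacent tiles, the genes stood at percentiles 62.96 (Axin1) to 99.65 (Lef1) in ESC. In NPC these ran from 20.55 (Axin1) to 99.9 (Axin2). The NPC/ESC ratio was below 1 in each gene, with a median of 0.132, and it lay below the genome-wide 0.188 beyond counting error in 6 of 8, the exceptions being Axin1 and Axin2. For these 6 genes, runs of as many tiles with an ESC level within 5% of the gene's had median ratios of 0.0947 (Lef1) to 0.143 (Lrp6). The 6 genes stood at percentiles 21.7 (Apc) to 75.6 (Tcf7l2) of such runs. A ratio below the genome-wide one was thus usual for stretches as rich in ESC 5hmC. The tally of 6 depends on the settings: Lrp6 left it without its richest tile (0.151, 0.119 to 0.192). With 20 kb added on both sides Axin1 joined it (0.132, 0.101 to 0.172), while the interval of Lrp6 reached the genome-wide ratio (0.154, 0.126 to 0.188). It also changed when a background of 0.159 5hmC reads per input read, the NPC level in the tenth of tiles poorest in ESC 5hmC, was subtracted from both cell types. The genome-wide ratio was then 0.0845, Tcf7l2 was level with it at 0.0844, Axin1 was the lowest gene at 0.0142 and Axin2, at 0.210, was still the highest. No interval was computed for the subtracted values. Without antibody no difference between the cell types was detectable at these genes: each gene's share of input reads, NPC over ESC, lay between 0.904 (Axin2) and 1.05 (Tcf7l2 and Gsk3b), and every interval included 1.

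**Figure D1:**
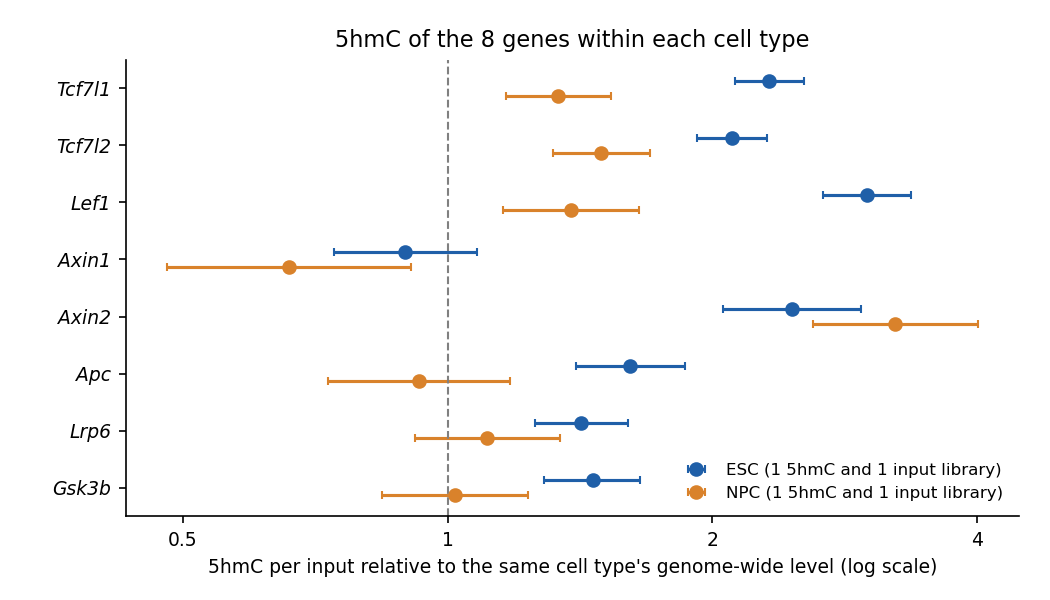
5hmC reads per input read over each gene window relative to the genome-wide level of the same cell type (log axis), for ESC in blue and NPC in orange, with 95% counting intervals; 1 library of each kind per cell type. Lef1 is highest in ESC at 2.996, Axin2 is highest in NPC at 3.23, and Axin1 is lowest in both.

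Axin2 departed from the other members. It is a scaffold of the destruction complex and a direct target of beta-catenin that feeds back on the pathway. Its window held 527 5hmC reads over 152 input reads in ESC and 153 over 179 in NPC. The ESC level was thus 2.46 times the genome-wide one (2.06 to 2.95), and the NPC level 3.23 times (2.60 to 4.01). Compared with all runs of as many tiles on chromosomes 1 to 19 and X, it stood at percentile 97.1 in ESC and 99.9 in NPC. Its NPC/ESC ratio of 0.247 (0.184 to 0.330), a 4.06-fold lower level in NPC, was the highest of the 8. The 500 kb on either side of Axin2 had a ratio of 0.226 (0.209 to 0.2455), also the highest of the 8 surroundings and within the interval of the gene. Among all runs of its length the ratio of Axin2 stood at percentile 47.6, near their median of 0.259. Among 6757 such runs with an ESC level within 5% of that of Axin2, the median ratio was 0.102 and the 95th percentile 0.184. Axin2 stood at percentile 99.1 of these, so its ratio was high for its ESC level and not among all runs. These runs overlap one another and serve as a description.

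Enriched tiles covered Axin2 from end to end in ESC, and only in part in NPC. A run of 7 adjacent tiles, 35 kb from 108780001 to 108815000 on chromosome 11, was enriched at least 2-fold over input in ESC, and 5 of these tiles were also enriched in NPC. Not enriched in NPC were the tile from 108780001 to 108785000, with 6 over 11 (2.06 times genome-wide, 0.626 to 6.08), and that from 108790001 to 108795000, with 15 over 29 (1.955 times, 0.974 to 3.77). The richest NPC tile, from 108795001 to 108800000, held 31 5hmC reads over 19 input reads (6.17 times the genome-wide level, 3.38 to 11.6) against 84 over 14 in ESC (4.26 times, 2.40 to 8.13). The next, from 108785001 to 108790000, held 37 over 25 in NPC, 5.60 times. Over the 500 kb on either side of the window, the level was 1.15 times genome-wide in ESC and 1.39 in NPC, so that Axin2 exceeded its surroundings 2.14-fold in ESC (1.77 to 2.58) and 2.33-fold in NPC (1.86 to 2.91). Of the NPC 5hmC reads of Axin2, 37.9% were on the plus strand (30.2 to 46.1), and no position held more than 2 reads. The ratio was similar on both strands, 0.251 (0.162 to 0.389) from plus-strand reads and 0.229 (0.152 to 0.344) from minus-strand reads.

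Axin1, the paralog of Axin2 that is the constitutive scaffold of the same complex, was the poorest member. It had 247 5hmC reads over 196 input reads in ESC and 44 over 252 in NPC. Relative to the genome-wide level this was 0.895 in ESC (0.742 to 1.08) and 0.660 in NPC (0.479 to 0.909). Axin2 was therefore above Axin1 in both cell types: the Axin1/Axin2 ratio was 0.364 in ESC (0.278 to 0.476) and 0.204 in NPC (0.136 to 0.305), and 0.562 in the NPC/ESC ratio (0.353 to 0.895). Much of the Axin1 signal lay outside its span. The tile from 26335001 to 26340000 on chromosome 17, beyond the 3′ edge, held 77 ESC 5hmC reads over 17 input reads, and 65 of them lay inside the window, 26.3% of its ESC 5hmC reads. Without that tile the ESC level of the window was 0.695 (0.567 to 0.853), and over the span alone it was 0.719 (0.578 to 0.895). Axin1 was also poorer than its surroundings, at 0.618 of them in ESC (0.511 to 0.749) and 0.682 in NPC (0.492 to 0.946). Its NPC/ESC ratio was 0.139 (0.0934 to 0.203), but its NPC level of 0.175 5hmC reads per input read was close to the background of 0.159, and subtracting that left 0.0142.

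The other members of the destruction complex, Apc and Gsk3b, had overlapping intervals in both cell types. Apc, the scaffold that brings beta-catenin to the complex, held 620 5hmC reads over 273 input reads in ESC and 84 over 342 in NPC, or 1.61 times the genome-wide level (1.40 to 1.86) and 0.929 times (0.731 to 1.18). Gsk3b, the kinase that phosphorylates beta-catenin, held 747 over 363 and 134 over 497, or 1.46 times (1.29 to 1.66) and 1.02 times (0.842 to 1.23). Both were thus above the genome-wide level in ESC and not distinguishable from it in NPC. Their NPC/ESC ratios were 0.108 (0.0810 to 0.144) for Apc and 0.131 (0.104 to 0.166) for Gsk3b. Against the 500 kb around each, no difference was detectable in ESC, with gene/surroundings ratios of 1.01 (0.868 to 1.17) for Apc and 0.967 (0.845 to 1.11) for Gsk3b. In NPC the ratios were 0.773 (0.603 to 0.991) for Apc, below its surroundings, and 0.850 (0.693 to 1.04) for Gsk3b. The NPC difference of Apc was not detectable against 100 kb (0.835, 0.620 to 1.12) or 1 Mb (0.889, 0.696 to 1.135) on either side. Against 1 Mb on either side both were richer in ESC, by 1.18-fold (1.02 to 1.36) and 1.20-fold (1.05 to 1.37).

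Lrp6, the co-receptor, had 772 5hmC reads over 386 input reads in ESC and 138 over 470 in NPC. ESC stood at 1.42 times their genome-wide level (1.26 to 1.605) and NPC at 1.11 times theirs (0.918 to 1.34). The NPC/ESC ratio was 0.147 (0.116 to 0.185). It lay in an area rich in 5hmC: the surrounding 500 kb on either side reached 1.69 times the genome-wide level in ESC, and Lrp6 was at 0.841 of them (0.739 to 0.956). With 1 Mb on either side that value was 0.978 (0.861 to 1.11).

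The 3 DNA-binding factors, summed, stood at 2.39 times (2.26 to 2.53) the ESC genome-wide level and 1.41 times (1.30 to 1.53) that of NPC, against 1.545 (1.43 to 1.67) and 1.235 times (1.11 to 1.38) for the 4 members of the destruction complex. The latter sum mixes unlike genes, since Axin2 gave 153 of its 415 NPC 5hmC reads. The median gene of the complex stood at 0.974 times in NPC, and only 1 of the 4, Axin2, lay above the genome-wide level there. Axin2, at 3.23 times, was also above each of the 3 factors in NPC. Lef1, which mainly activates Wnt targets together with beta-catenin, had 1502 5hmC reads over 356 input reads in ESC and 165 over 451 in NPC. Its ESC level, 2.996 times genome-wide (2.67 to 3.36), was the highest of the 8 and stood at percentile 99.65 of runs of its length. In NPC it was 1.38 times (1.16 to 1.65), at percentile 90.7. The NPC/ESC ratio of 0.0867 (0.0697 to 0.108), an 11.5-fold lower level in NPC (9.28 to 14.35), was the lowest of the 8. With background subtracted it was 0.0510, and Axin1 (0.0142) and Apc (0.0410) were lower. The unsubtracted ratio was close to the median of 0.0947 among 1767 runs of like ESC level, at percentile 35.3, so that runs as rich as Lef1 in ESC had like ratios.

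Tcf7l1, the family member known chiefly as a repressor in ESC, had 1966 5hmC reads over 601 input reads in ESC and 272 over 769 in NPC. These are 2.32 times (2.12 to 2.55) and 1.34 times (1.17 to 1.535) the respective genome-wide levels, and the NPC/ESC ratio was 0.108 (0.0913 to 0.128). Tcf7l2, which encodes activating and repressing isoforms, had 1808 over 610 and 330 over 834. Here the levels were 2.105 times (1.92 to 2.31) and 1.496 times (1.32 to 1.70), and the ratio was 0.134 (0.114 to 0.157).

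Lef1 stood above both other factors in ESC, and no such difference was detectable in NPC. In ESC, Tcf7l1 and Tcf7l2 had 0.775 (0.667 to 0.9005) and 0.703 (0.604 to 0.816) of the level of Lef1. In NPC these values were 0.967 (0.767 to 1.22) and 1.08 (0.864 to 1.36), and the interval of each of the 3 pairs included 1. The NPC/ESC ratio of Tcf7l2 exceeded that of Lef1 by 1.54-fold (1.18 to 2.005). Between Tcf7l1 and Lef1 (1.25, 0.952 to 1.63) and between Tcf7l1 and Tcf7l2 (0.810, 0.645 to 1.02) a difference in the NPC/ESC ratio was not detectable at this depth. 4 pairs of related genes were compared, the 3 of this family and the Axin pair. Lef1 and Tcf7l1 exceeded the 500 kb around them in ESC by 1.91-fold (1.68 to 2.17) and 1.73-fold (1.56 to 1.91). Tcf7l2 exceeded its own by 1.26-fold (1.14 to 1.40) in ESC and 1.23-fold (1.07 to 1.42) in NPC, but against 100 kb on either side these were 1.10 (0.957 to 1.255) and 1.05 (0.875 to 1.27).

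**Figure D2:**
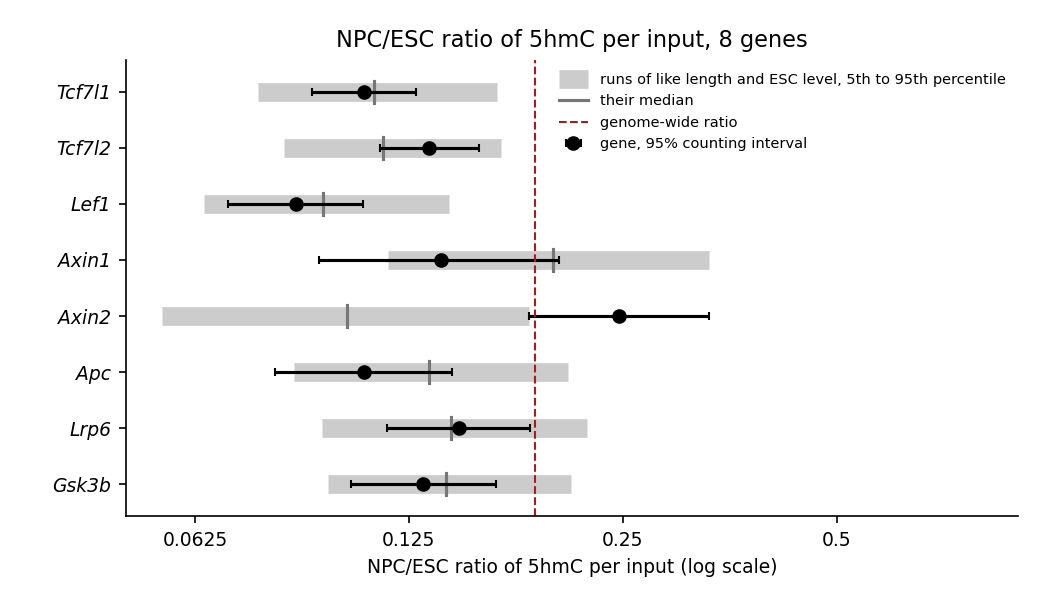
NPC/ESC ratio of 5hmC reads per input read (log axis) of each gene with its 95% counting interval (black), beside the 5th to 95th percentile (grey bar) and median (grey line) of runs of tiles with like length and ESC level, and the genome-wide ratio of 0.188 (dashed). 7 genes lie within the grey bars and Axin2, at 0.247, lies beyond its bar, which ends at 0.184.

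Most neighbours in the order of levels could not be separated. By NPC/ESC ratio the order from the highest was Axin2, Lrp6, Axin1, Tcf7l2, Gsk3b, Apc, Tcf7l1 and Lef1. Of its 7 neighbouring pairs, 1 differed beyond counting error, Axin2 over Lrp6 (1.68-fold, 1.17 to 2.41). With background subtracted the order was Axin2, Tcf7l2, Lrp6, Tcf7l1, Gsk3b, Lef1, Apc and Axin1, so that Axin1 moved to the end. By ESC level the order was Lef1, Axin2, Tcf7l1, Tcf7l2, Apc, Gsk3b, Lrp6 and Axin1, and 2 pairs differed, Tcf7l2 over Apc (1.305-fold, 1.10 to 1.55) and Lrp6 over Axin1 (1.59-fold, 1.26 to 1.997). By NPC level it was Axin2, Tcf7l2, Lef1, Tcf7l1, Lrp6, Gsk3b, Apc and Axin1, and 1 pair differed, Axin2 over Tcf7l2 (2.16-fold, 1.67 to 2.80).

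The number of tiles enriched in ESC ranged from 1 in Axin1 and in Lrp6 to 19 in Lef1 and in Tcf7l1. A tile was called enriched at 10 or more 5hmC reads and at least 2 times its own input after scaling to library totals. All 205 member tiles passed the limits on input reads. In ESC 75 of them (36.6%) were enriched, against 10.6% of all kept tiles, and in NPC 40 (19.5%), against 5.82%. In both cell types 23 were enriched, against 2.18% of all kept tiles. The member tiles were also covered more deeply, with 14.3 ESC input reads per tile against 10.5 over all kept tiles, which makes the minimum of 10 reads easier to reach. With a minimum of 5 reads the member share was 36.6% in ESC, against 10.8% of all kept tiles, and 25.9% in NPC, against 10.6%. With a minimum of 20 it was 36.6% in ESC, against 10.03%, and 2.93% in NPC, against 1.04%. In ESC enriched tiles numbered 19 of 25 in Lef1, 19 of 35 in Tcf7l1, 15 of 41 in Tcf7l2, 7 of 9 in Axin2, 7 of 33 in Gsk3b, 6 of 22 in Apc, 1 of 14 in Axin1 and 1 of 26 in Lrp6. The count of Lrp6 depends on the cut, since further tiles lay just under 2 times, among them 1.995, 1.993 and 1.981. Its ESC level over the window, 1.42 times genome-wide, was close to the 1.46 of Gsk3b. The longest ESC run of the group was in Lef1, 11 tiles from 130860001 to 130915000 on chromosome 3. In NPC Tcf7l2 had 13 enriched tiles, Tcf7l1 9, Axin2 6, Lef1 5, Apc and Lrp6 3 each, Gsk3b 1 and Axin1 none.

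Of the 92 member tiles enriched in either cell type, 88 (95.7%) were at least 2-fold lower in NPC, against 84.8% of all such tiles, and none was at least 2-fold higher, against 1.02%. Tiles enriched in ESC made up 75 of these 92, against 50511 of 67878 over all tiles, and 48 of the 75 held under 10 NPC 5hmC reads. A tile picked for high ESC 5hmC tends to be lower in NPC. The shares in this paragraph thus follow in part from which tiles were picked and are a description. Relative to the genome-wide ratio, 38 tiles (41.3%) were lower by 2-fold or more, which is near the background of 41.9%. Above it by at least 2-fold lay 7 (7.61%), against 21.1% of all such tiles: 2 each in Tcf7l2 and Apc and 1 each in Lef1, Axin2 and Lrp6. With tiles of 2 kb that share was 8.29% against 10.4%, so that the gap to all tiles was much smaller. The Lef1 tile, from 130855001 to 130860000, was its richest in NPC. It held 17 NPC 5hmC reads over 12 input reads (5.36 times the genome-wide level, 2.41 to 12.3) and 50 over 23 in ESC (1.54 times, 0.925 to 2.65), a ratio of 0.652 (0.246 to 1.765).

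**Figure D3:**
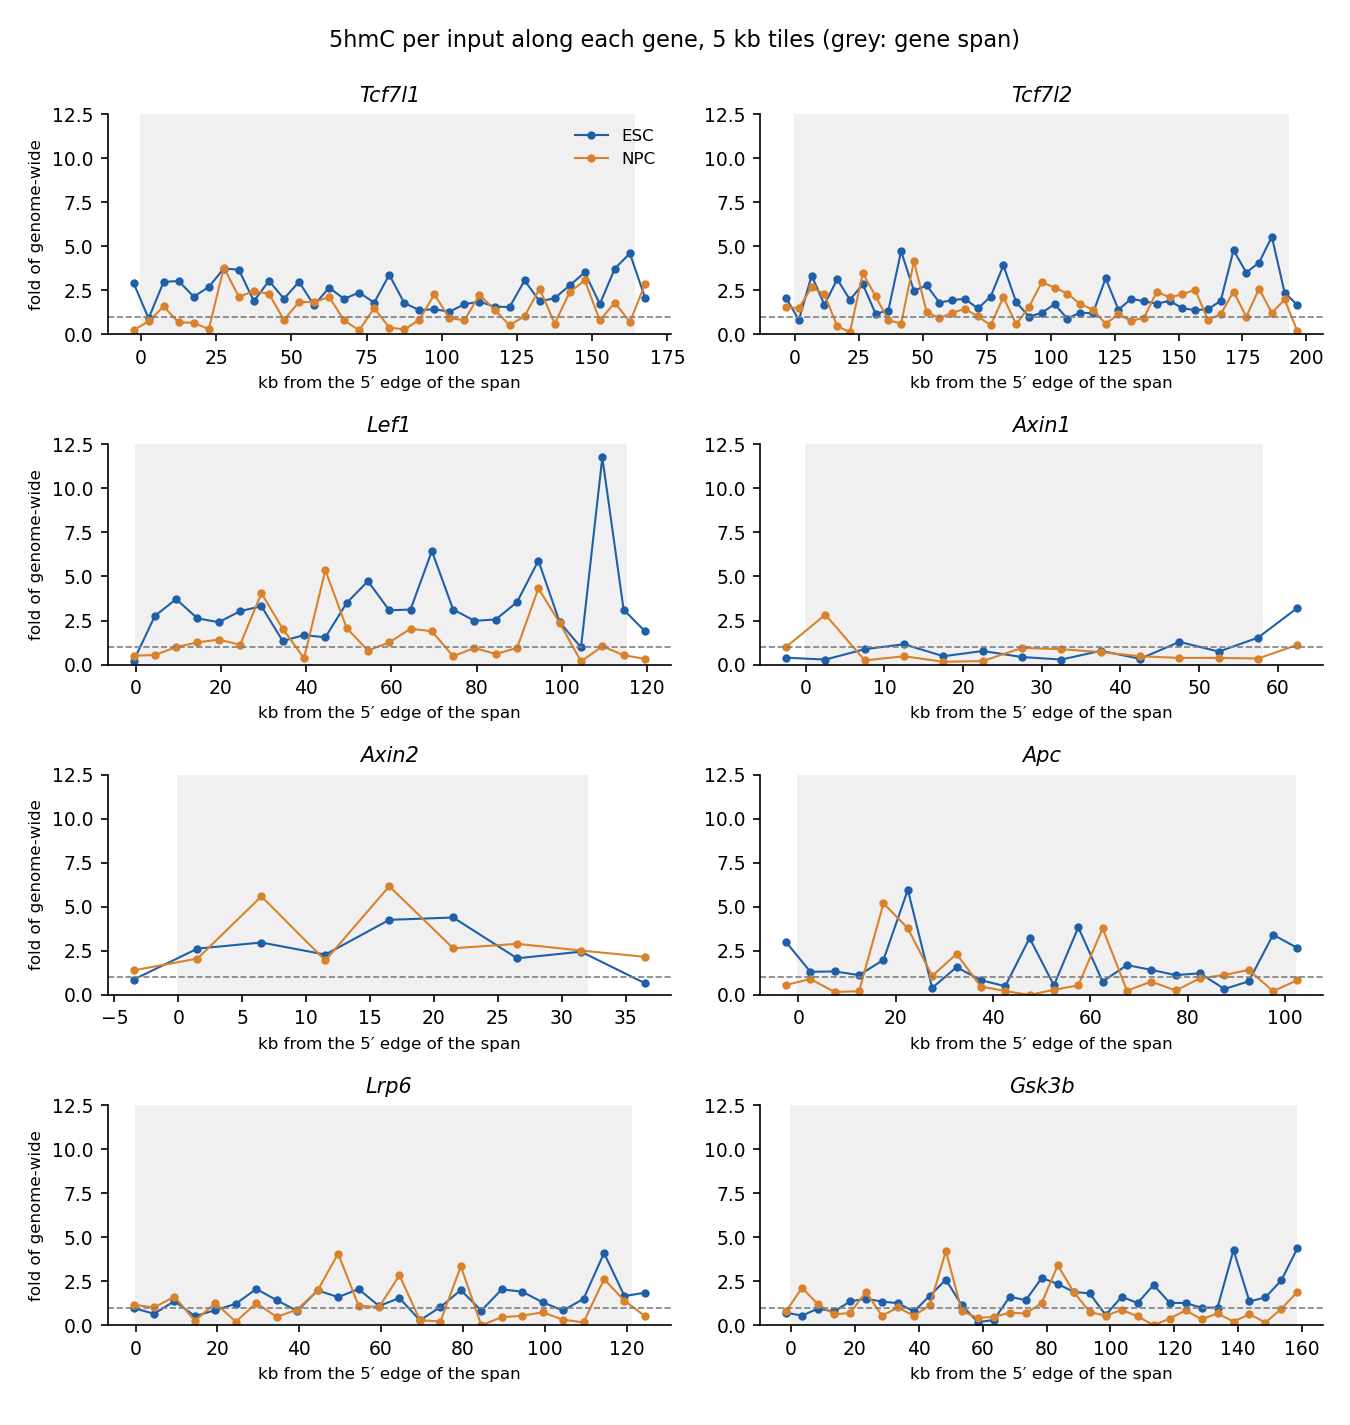
5hmC reads per input read in 5 kb tiles relative to the genome-wide level of the same cell type, for ESC (blue) and NPC (orange), against the distance in kb from the 5′ edge of each gene, with the span shaded. The highest ESC tile is centred within 10 kb of the 3′ edge in 6 of 8 genes, all but Axin2 and Apc, with a maximum of 11.8 in Lef1. The NPC profile of Axin2 lies at or above its ESC profile in 6 of 9 tiles.

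The position of the ESC-richest tile was described after the values were seen. It was centred within 10 kb of the 3′ edge in 6 of 8 genes, the exceptions being Axin2 and Apc. In Axin1 and Gsk3b its centre lay beyond that edge, and the Gsk3b tile had 6 input reads (4.38 times, 1.83 to 12.7). In Lef1 the ESC-richest tile, from 130920001 to 130925000, held 149 5hmC reads over 9 input reads in ESC (11.8 times the genome-wide level, 6.03 to 26.2). In NPC it held 6 over 22 (1.03 times, 0.342 to 2.62), a ratio of 0.0165 (0.00451 to 0.0569), and it was also the lowest of the eligible Lef1 tiles in NPC/ESC ratio. In Tcf7l2 the tile from 56000001 to 56005000 on chromosome 19 held 109 over 14 in ESC and 8 over 25 in NPC, a ratio of 0.0411 (0.0137 to 0.119). In Tcf7l1 the tile from 72575001 to 72580000 on chromosome 6 held 84 over 13 and 4 over 22, a ratio of 0.0281 (0.00636 to 0.105). Exons and untranslated regions within these tiles were not analysed here, since no mm9 annotation was used. With gene bodies cut into 3 equal parts, the ESC level was higher in the 3′ than in the 5′ part in 6 of 8 genes. The interval of this difference lay above 1 in 2 of them, Lef1 (1.44-fold, 1.05 to 1.97) and Lrp6 (1.69-fold, 1.20 to 2.38). In Tcf7l1 (0.942) and Apc (0.910) the 3′ part was the lower one.

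Summed over the 8 genes, the stretch from 2 to 6 kb inside the 3′ edge held 573 ESC 5hmC reads over 107 input reads, 3.803 times the genome-wide level (3.09 to 4.72), and 63 over 134 in NPC, 1.78 times (1.30 to 2.415). The stretch was picked as the highest pair of neighbouring ESC bins in the summed profile, so its level is a description. The summed gene bodies, beyond the first 2 kb, stood at 2.04 times in ESC. By gene the stretch ran from 1.295 in Axin1 (0.695 to 2.495) to 8.74 in Lef1 (4.59 to 18.7), against 0.729 and 3.20 in their bodies. In Tcf7l1 and Axin2 it was close to the body, at 2.70 (1.51 to 5.13) against 2.35 and at 3.30 (2.09 to 5.43) against 3.11. Without Lef1 the summed ESC value was 3.295, and without Axin1 it was 4.28. In NPC, Axin2 alone contributed 25 of the 63 reads, and without it the NPC value was 1.28.

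Just inside the 5′ edge ESC were poor in 5hmC, but not just outside it. The first 2 kb inside the edge held 19 ESC 5hmC reads over 42 input reads in the 8 genes together, 0.321 times the genome-wide level (0.177 to 0.565), and no gene had more than 5 reads there. Gsk3b had 0 reads over 6 input reads and Lef1 1 over 8. The 2 kb just outside the edge held 113 over 33, or 2.43 times (1.64 to 3.70). Genes were uneven there: Axin2 held 36 of these reads, Apc 19 over 1 input read, and Lef1 stood at 0.568 times (0.113 to 2.64). Without Axin2 the value was 2.19. In NPC the same stretches held 14 over 45 and 15 over 47, or 1.18 (0.596 to 2.18) and 1.21 times (0.627 to 2.20), so that no dip was detectable at this depth. Of the 14 NPC reads inside the edge 7 lay in Axin1, and without Axin1 the NPC value was 0.679. Over both stretches together ESC stood at 1.25 times the genome-wide level (0.9345 to 1.68). The edges are known to 1 kb only, since the spans are in whole kb.

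**Figure D4:**
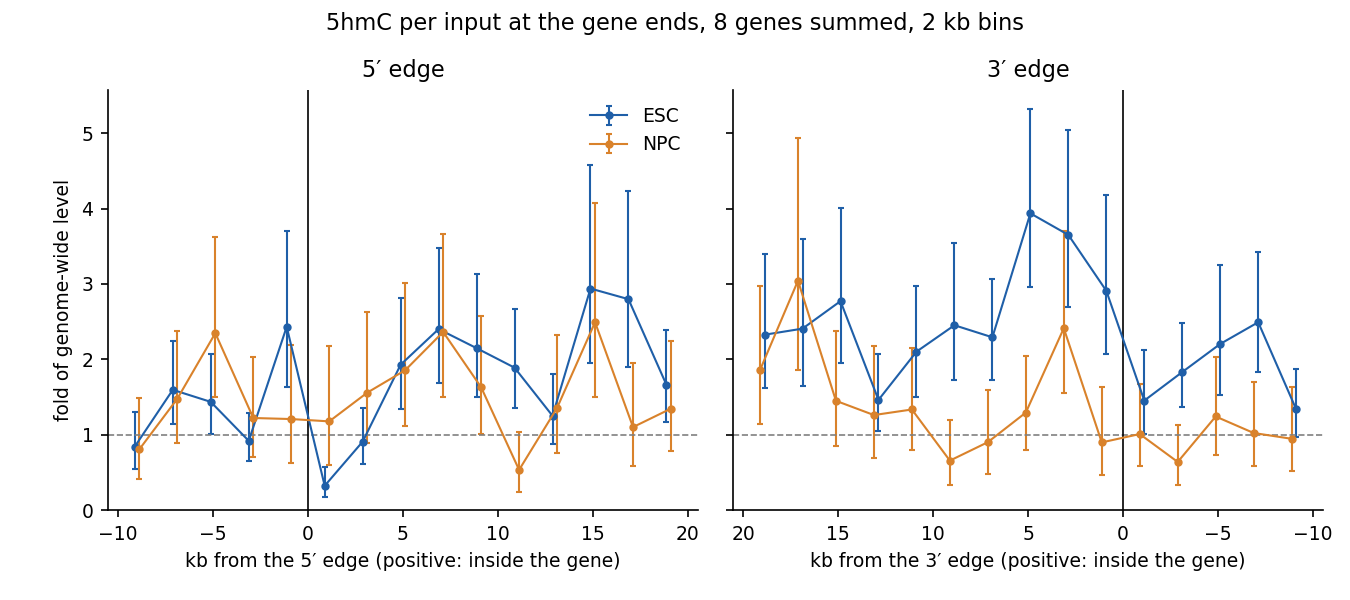
5hmC reads per input read relative to the genome-wide level, summed over the 8 genes in 2 kb bins by distance from the 5′ edge (left) and the 3′ edge (right) of the spans, for ESC (blue) and NPC (orange) with 95% counting intervals. ESC dip to 0.321 in the first 2 kb of the gene and reach 3.94 between 4 and 6 kb inside the 3′ edge.

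Taking 2 kb on either side of the 5′ edge as the 5′ end, its ESC level was 0.612 of that of the gene body in the summed genes (0.459 to 0.815), and in NPC 0.890 (0.583 to 1.36). Single genes were thinly covered at this scale, with 5 to 13 ESC input reads. In this window Lef1 alone had an ESC interval below 1, and its 5′ end held 5 5hmC reads over 13 input reads, 0.0855 of the level of its body (0.0237 to 0.258). With 5 kb on either side of the edge the ESC interval lay below 1 in 4 other genes as well: Tcf7l2 (0.570, 0.353 to 0.936), Axin1 (0.4315, 0.225 to 0.8065), Axin2 (0.564, 0.348 to 0.930) and Gsk3b (0.572, 0.333 to 0.990). With 1 kb it did so in Lef1, Lrp6 (0.0974, 0.00206 to 0.877) and Gsk3b (0.0969, 0.00205 to 0.873). The 5′ end of Axin2 in the 2 kb window held 39 over 11, 0.811 of its body (0.391 to 1.815). In NPC the 5′ end of Axin1 held 9 over 12, 6.29 times its body (2.08 to 18.2), against 1.08 times in ESC (0.384 to 3.10). With 1 kb on either side the NPC value was 2.18 (0.205 to 12.9), no longer beyond counting error, and with 5 kb it was 4.02 (1.69 to 9.27). The Axin1 body in NPC held 23 over 193, below the background of 0.159 5hmC reads per input read, so the size of this fold is uncertain. The tile from 26275001 to 26280000 at this 5′ end was the only one of the 205 with an NPC/ESC ratio above 1, at 1.875 (0.485 to 7.28) from 9 NPC and 8 ESC 5hmC reads.

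The sequences before the start sites of Gsk3b and Lef1, with 0 and 1 ESC reads in the first 2 kb inside the 5′ edge (Tcf7l2 also had 1, over 2 input reads), and of Axin2, the richest member in NPC, are shown for their CpG content, because 5hmC in these cells is made mostly at CpG. Each is the 250 bases upstream of the start from RefSeq on build GRCm38.p6, with CpG in capitals. These bases thus lie on the outer side of the 5′ edge and not in the 2 kb inside it. In the 2 kb outside, ESC stood at 1.42 times genome-wide in Gsk3b (0.303 to 8.78), 0.568 in Lef1 (0.113 to 2.64) and 3.20 in Axin2 (1.46 to 7.96). The sequences are on another build than the reads and were not used to place any read.
Lef1, GRCm38.p6 chr3:131110047-131110296, plus strand: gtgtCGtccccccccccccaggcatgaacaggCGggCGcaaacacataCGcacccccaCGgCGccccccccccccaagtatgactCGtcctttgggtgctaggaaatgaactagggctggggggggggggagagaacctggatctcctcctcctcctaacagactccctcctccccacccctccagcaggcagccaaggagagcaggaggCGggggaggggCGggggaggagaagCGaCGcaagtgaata
Gsk3b, GRCm38.p6 chr16:38088751-38089000, plus strand: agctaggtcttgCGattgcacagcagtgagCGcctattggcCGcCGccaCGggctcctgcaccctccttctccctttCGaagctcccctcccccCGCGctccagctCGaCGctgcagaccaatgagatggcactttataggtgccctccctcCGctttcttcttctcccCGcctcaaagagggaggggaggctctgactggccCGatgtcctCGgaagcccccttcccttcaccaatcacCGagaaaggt
Axin2, GRCm38.p6 chr11:108920099-108920348, plus strand: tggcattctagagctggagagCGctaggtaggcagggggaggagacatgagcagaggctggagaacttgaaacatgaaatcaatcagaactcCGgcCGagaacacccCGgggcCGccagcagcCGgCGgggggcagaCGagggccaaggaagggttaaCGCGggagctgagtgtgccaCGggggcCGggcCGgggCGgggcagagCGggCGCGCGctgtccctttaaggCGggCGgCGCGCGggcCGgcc

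These hold 11, 15 and 24 CpG, against a median of 6 in the 32851 promoters of the table. Of the 8 members 5 have an entry there, and Tcf7l1 and Tcf7l2 hold 29 and 30 CpG. The observed CpG count over that given by base composition was 0.400 in Lef1, 0.662 in Gsk3b and 0.860 in Axin2. The motif CTTTG, the core of the sequence bound by TCF/LEF factors, was searched on both strands. It occurred once each in Tcf7l1, Tcf7l2, Lef1 and Gsk3b and not in this window of Axin2, and 48.6% of all promoters in the table hold it. A match of 5 letters is a description and not a binding site.

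In Gsk3b and Lrp6 the NPC/ESC ratio was lower on the 3′ side. Gene bodies were cut into 3 equal parts, a comparison chosen after the values were seen. In Gsk3b the 5′ part held 234 5hmC reads over 128 input reads in ESC and 59 over 160 in NPC, a ratio of 0.202 (0.137 to 0.296). Its 3′ part held 251 over 103 and 18 over 156, a ratio of 0.0474 (0.0261 to 0.0828). The 3′ part thus had 0.235 of the ratio of the 5′ part (0.122 to 0.451). In NPC its level was 0.436 times genome-wide (0.252 to 0.712) while that of the 5′ part was 1.39 times (1.02 to 1.89). The NPC level of the 3′ part was below the background of 0.159 5hmC reads per input read, so the size of its ratio is uncertain. No background was subtracted from single parts.

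In Lrp6 the ratio was 0.141 in the 5′ part, 0.249 in the middle and 0.0703 in the 3′ part, and the last was 0.498 of the first (0.2545 to 0.974). Its 3′ part held 29 NPC 5hmC reads over 161 input reads, close to the background of 0.159 per input read. The ratio was lower in the 3′ part in 7 of 8 genes, Tcf7l1 being the exception, but the interval of the difference lay below 1 in Gsk3b and Lrp6 alone. In Tcf7l1 and Tcf7l2 the parts were nearly even, with 3′/5′ values of 1.17 (0.779 to 1.76) and 0.971 (0.655 to 1.44). Summed over the genes, the 3′ part had 0.708 of the ratio of the 5′ part (0.582 to 0.862). Leaving out each gene in turn gave 0.603 (without Tcf7l1) to 0.797 (without Gsk3b), each with an interval below 1.

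**Figure D5:**
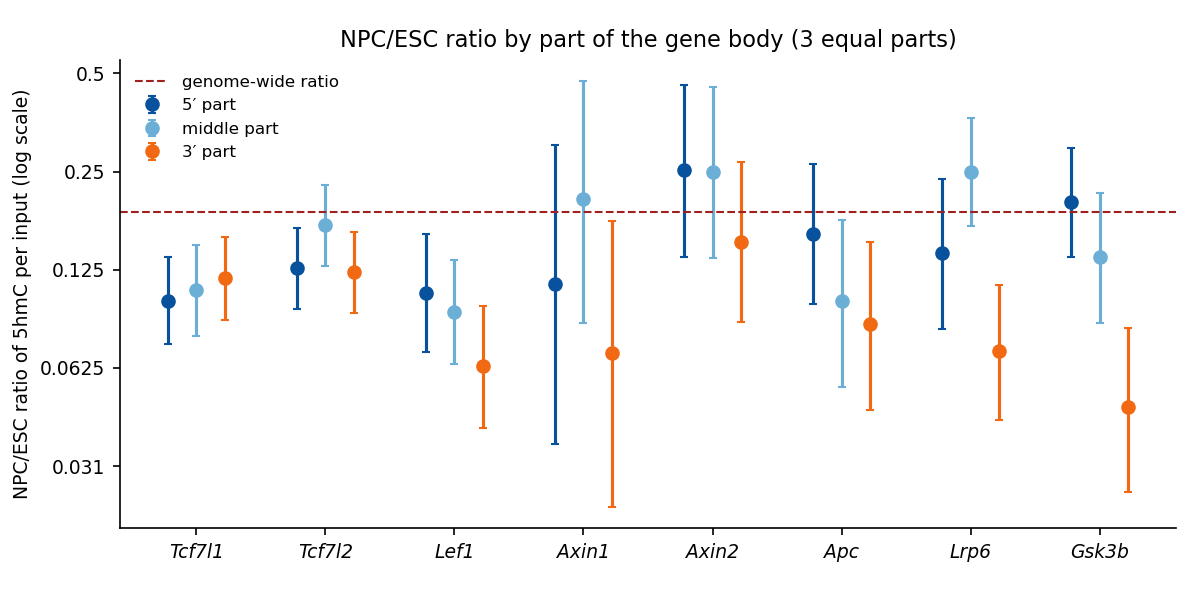
NPC/ESC ratio of 5hmC reads per input read (log axis) in the 5′, middle and 3′ part of each gene body, with 95% counting intervals and the genome-wide ratio dashed. The 3′ part of Gsk3b, at 0.0474, is the lowest of all parts, and those of Tcf7l1 differ little.

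ESC and NPC profiles within the genes ran only loosely in parallel. Across the 205 member tiles the log2 enrichments of the cell types had a Pearson r of 0.258, like the 0.260 over all 476815 kept tiles. Within genes it ran from -0.284 in Axin1 (14 tiles) to 0.623 in Axin2 (9 tiles). Tiles are not independent replicates, and with 6.42 NPC 5hmC reads per member tile much of the NPC value is counting noise.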

How the data were processed

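5hmC libraries and inputs of ESC and NPC were made per the labels' protocols from sonicated DNA under 500 bp, about 4 µg of each barcoded DNA being mixed and precipitated with 4 µg of antibody after 10% was taken as input, with 10 to 12 PCR cycles. Bowtie 0.12.7 and mm9 are named per the submitters' processing notes. The deposited files list read positions extended to 350 bp with a raw count of reads at each position, unscaled as far as the values show. Filters on reads: not given in the sources used here.

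Distinct reads on chromosomes 1 to 19 and X were counted with numpy 2.4.6 and pandas 2.3.3 under Python 3.11.15, and intervals computed with scipy 1.17.1. Tiles needed 5 reads in the summed inputs and at most 5 times the median of 23, which kept 476815, and a pseudocount of 0.5 reads was added for calls. Runs of tiles needed 0.5 of the median of summed input reads. Intervals are exact conditional or Clopper-Pearson intervals, or, with any count over 2000, from a normal approximation of the log ratio, as also for ratios of 2 NPC/ESC ratios. PCR copies are not independent molecules. Tile calls and intervals were run on data simulated with counting error only, which cannot show how they hold with differences between libraries.

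Spans were given in whole kb. Strands came from the RefSeq promoter table for 5 genes and from background knowledge for Axin1, Apc and Lrp6. All 8 members are named. The named tiles are the richest in each cell type and those of extreme NPC/ESC ratio, among tiles with at least 20 5hmC reads in both cell types together and 5 reads in each input. The members and lists were chosen with earlier results of these data known. Other genes of the pathway were not analysed here, because no mm9 annotation was used.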

Additional observations from a re-analysis of the deposited data

How the results depend on the processing

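No paired analysis was possible because each group held 1 library, and for the same reason none could be left out. Of 208 recomputed values 180 stayed within the counting interval, or for counts within 1.5 times, of the value reported, and 28 moved. No gene value whose interval excluded 1 crossed 1. All NPC/ESC ratios lie far below 1, so this rule could hardly fail for them. Their place against the genome-wide ratio was not part of the rule, and it changed in some settings for Lrp6, Axin1 and Tcf7l2. No NPC/ESC ratio moved with all deposited reads, other flanks, placement by the 5′ end of reads, summed inputs or without the richest tile. Subtracting a background of 0.159 5hmC reads per input read, the NPC level in the tenth of tiles poorest in ESC 5hmC, lowered the ratio to 0.0626 in Tcf7l1, 0.0844 in Tcf7l2, 0.0510 in Lef1, 0.0142 in Axin1, 0.0410 in Apc, 0.0731 in Lrp6 and 0.0583 in Gsk3b, and genome-wide to 0.0845, while Axin2 kept 0.210. The ESC level of Axin2 was 3.04 and that of Axin1 0.719 over the spans alone, and Axin1 had 0.695 without its richest tile. Against 1 Mb on either side, ESC gene/surroundings ratios became 2.19 in Tcf7l1, 2.69 in Lef1, 1.18 in Apc, 0.978 in Lrp6 and 1.20 in Gsk3b. Against 100 kb they became 1.40 in Lef1, and 1.10 in ESC and 1.05 in NPC for Tcf7l2. With 1 kb on either side of the 5′ edge, the 5′ end over body was 5.23 in NPC for Lef1 (0.270 to 309) and 0.0974 in ESC for Lrp6. A minimum of 20 reads left 6 NPC-enriched member tiles (2.93%, against 1.04% of all tiles) and 0 above the genome-wide ratio, against 6.55%. A pseudocount of 5 reads put 17 below (20.5%, against 14.6%) and 11 above that ratio (13.25%, against 33.6%). Tiles of 2 kb gave 177 enriched in ESC (35.3%, against 12.05%) and 17 in NPC (3.39%, against 1.535%), with 105 below (58.01%, against 56.2%) and 15 above the ratio (8.29%, against 10.4%). The cause of these shifts was not tested, beyond the smaller read number of 2 kb tiles. NPC depth, 6.42 5hmC reads per member tile, limits single tiles most.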
